A study of Mus musculus with 5 samples.

Results

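The cells described here are the 940 kidney cells that the authors' annotation labels GL endo, endothelial cells of the glomerulus, out of 14197 cells in all (6.62%, 95% exact binomial interval 6.22 to 7.04). All cells with that label were taken, and no cell was added or removed by its gene expression. They came from whole adult kidney of FVB/Ant mice that was perfused, digested with collagenase and trypsin and sequenced as single cells with a droplet 3′ kit in 5 libraries. The 2 wild type libraries were WT female and WT mix (males and females pooled), and the 3 knockout libraries were KO female, KO male and KO mix (pooled in the same way). The knockout is a pair of STOP codons inserted by CRISPR/Cas9 behind the start codon of Fame (Ccdc198), and controls were littermates. How many mice went into each library was not stated, so p-values measure the spread between libraries, which may be technical. Both mixed libraries were sequenced in run 3 and the single-sex libraries in run 2, so that run and pooling cannot be told apart.

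Glomerular endothelium is the inner layer of the filtration barrier. Its cells are thin, pierced by open fenestrae and covered by a glycocalyx, and they live on VEGF-A that podocytes secrete and that they bind with the receptor KDR (VEGFR2). Most other capillaries of the kidney run beside the tubules, and their fenestrae carry diaphragms made of PLVAP, a protein that adult glomerular capillaries largely lack. Ehd3, which encodes a membrane-recycling ATPase, is used as a marker of the glomerular capillary bed, while Emcn (endomucin, a sialomucin of the cell surface) and Kdr mark endothelium more widely.

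The GL endo cells held 254045 to 665328 UMIs (unique molecular identifiers, 1 for each captured transcript molecule) per library, with a median of 1532 to 1889.5 UMIs per cell. Levels are given in CPM, the UMIs of a gene per 1000000 UMIs of all GL endo cells of a library. Where 5 values follow each other, they are in the order WT female, WT mix, KO female, KO male, KO mix. A few deep cells carried much of the run 2 libraries. Of the 940 cells, 20 had more than 10000 UMIs, and these held 37.2%, 1.69%, 33.4%, 11.1% and 0% of the UMIs of the libraries. The median Scrublet doublet score was 0.141, 0.197 and 0.222 in the 3 libraries of run 2 and 0.0519 and 0.0533 in those of run 3. Across the series 25 cell barcodes occurred in more than 1 library, and 2 GL endo cells carried such a barcode. Xist and the Y-linked genes followed the labels, with no Y-linked UMI in the female libraries and no Xist UMI in KO male.

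The markers of the label were present in every library. Emcn, on chromosome 3 of GRCm38 from 137341067 to 137432185 on the plus strand, stood at 2027, 1706, 2270, 1854 and 1852 CPM, the narrowest range of the 3 markers. Kdr, on the minus strand of chromosome 5 from 75932827 to 75978458, stood at 439, 1489, 498, 268 and 1375 CPM, and Ehd3, on the plus strand of chromosome 17 from 73804134 to 73832094, at 223, 937, 391, 205 and 861 CPM. For Kdr and Ehd3 both mixed libraries lay above all single-sex libraries, and the share of all genes with such a split was not counted. With each cell thinned to 1000 UMIs, 73.6% to 79.4% of the GL endo cells of a library still had an Emcn UMI, 30.9% to 63.4% a Kdr UMI and 22.3% to 39.1% an Ehd3 UMI. Cells of the proximal straight tubule should lack these transcripts. There the thinned shares were at most 1.78% for Emcn, 0.758% for Kdr and 0.713% for Ehd3. All 3 markers thus lay well above the level of free RNA seen in tubule cells. This is a description, since the cluster was made from the same genes, and it does not cover doublets. Before thinning the tubule cells were deeper (median 4113 to 8708 UMIs), and their shares were at most 7.39% for Emcn, 3.03% for Kdr and 3.60% for Ehd3, against at least 85.1%, 43.6% and 28.7% in the GL endo cells.

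Promoter sequence is shown for Emcn and Kdr because Emcn was level across the libraries and Kdr was not. Ehd3, which separated the libraries as Kdr did, is left out because its promoter window lies inside an annotated exon. The stretches are RefSeq sequence of build GRCm38.p6, read 5′ to 3′ on the strand of the gene and ending where the annotated first exon begins, at chr3:137340828-137341066 for Emcn and chr5:75978459-75978705 for Kdr. Capitals mark matches on either strand to 2 motifs of ETS factors, the family of the endothelial regulators ERG and FLI1, namely CCGGAA and ACAGGAA, which do not overlap each other here.
Emcn: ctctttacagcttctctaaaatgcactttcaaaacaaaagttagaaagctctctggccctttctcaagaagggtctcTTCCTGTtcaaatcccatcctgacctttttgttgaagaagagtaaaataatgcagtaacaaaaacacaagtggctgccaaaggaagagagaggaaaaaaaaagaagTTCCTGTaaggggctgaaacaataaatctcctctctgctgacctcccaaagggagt
Kdr: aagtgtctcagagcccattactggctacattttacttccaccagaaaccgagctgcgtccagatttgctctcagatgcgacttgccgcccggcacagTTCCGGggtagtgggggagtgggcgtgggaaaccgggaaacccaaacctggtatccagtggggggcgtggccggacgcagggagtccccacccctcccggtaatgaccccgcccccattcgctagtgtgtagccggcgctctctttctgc
The Emcn stretch held 2 matches to ACAGGAA and the Kdr stretch 1 match to CCGGAA, all on the opposite strand. In the 250 bases before the start of all 32851 promoters of the table, CCGGAA occurred in 12.03% and ACAGGAA in 7.199%. A promoter was at hand for 9 of the 15 genes of the pan-endothelial list, in 13 entries, of which 1 held CCGGAA (Kdr) and 4 held ACAGGAA (Egfl7, Emcn and Tie1). A match is a description of the letters and no evidence of a bound factor.

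The genes that stood out most in the GL endo cells were genes of endothelium in general. As a description, with no test because the cluster was made from the same genes, 907 genes had at least 100 CPM in every library, and 28 of them had a mean at least 5 times that of the highest other cell type. Adgrl4, an adhesion GPCR of endothelium, led with a mean of 711 CPM and a ratio of 20.2. The VEGF receptor Flt1 (742 CPM, ratio 19.2), the secreted vessel factor Egfl7 (787 CPM, ratio 18.2) and the fatty acid-binding protein gene Fabp4 (7662 CPM, ratio 17.8) followed. The junction genes Cdh5 (VE-cadherin, ratio 11.4) and Pecam1 (9.50), the phosphatase gene Ptprb (16.0), the lipase-binding gene Gpihbp1 (11.2) and the sphingosine-1-phosphate receptor gene S1pr1 (8.38) were also among the top 25, as were Plvap (6.83), Kdr (5.77) and the VEGF-induced Esm1 (5.94). Ehd3 was not among them.

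Read against the markers, the label GL endo covers more than the glomerulus. Ehd3 had a UMI in 397 of the 940 cells and Plvap, the diaphragm gene of the peritubular capillaries, in 515. Cells with Plvap and no Ehd3 numbered 338 (36.0%), cells with Ehd3 and no Plvap 220 (23.4%), cells with both 177 (18.8%) and cells with neither 205 (21.8%). Plvap was found in 44.6% of the cells with Ehd3 and in 62.2% of those without. The data thus go against a purely glomerular origin of these cells, and GL endo is used below as the name of the label only.

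Clustering the GL endo cells on their own gave 7 sub-clusters. Sub-cluster 3, with 187 cells (19.9%), was the glomerular capillary-like one, since 7 of the 8 markers fixed for that bed were highest there. Its cells held 2423 CPM of Ehd3, 3218 CPM of Plat (tissue plasminogen activator), 613 CPM of Pi16, 217 CPM of Smad6 (an inhibitor of BMP signalling), 269 CPM of the transcription factor gene Tbx3 and 121 CPM each of Gata5, a transcription factor of glomerular endothelium, and Sost, which encodes the WNT antagonist sclerostin. Plvap stood at 43.4 CPM there, against 2264 CPM in sub-cluster 1 and 1824 CPM in sub-cluster 2. Lpl (lipoprotein lipase), the other marker of the list, was highest in sub-cluster 6. The 5 leading genes of sub-cluster 3 by ratio to the next sub-cluster were Meg3, Ccl4, Sost, Gimap3 and Slc26a10.

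The larger sub-clusters resembled other vessel segments. Sub-cluster 1 (214 cells) was peritubular capillary-like, with Plvap at 2264 CPM, the insulin-like growth factor-binding protein gene Igfbp3 at 2010 CPM and the natriuretic peptide clearance receptor gene Npr3 at 459 CPM. The fourth marker of that bed, Igfbp5, was as abundant in sub-cluster 3 (4540 CPM) as in sub-cluster 1 (4160 CPM). After Ren1, which is described below, sub-cluster 1 was led by Npr3, Uchl1, Esm1 and the Notch ligand gene Dll4. Sub-cluster 4 (165 cells) was arterial-like and descending vasa recta-like. In it 7 of the 10 arterial markers and all 3 vasa recta markers were highest, with the water channel gene Aqp1 at 1695 CPM, the gap junction gene Gja4 at 645 CPM, the transcription factor gene Sox17 at 599 CPM, Fbln5 (fibulin 5) at 375 CPM, Scin at 264 CPM and the urea transporter gene Slc14a1 at 246 CPM, a gene with at most 1.85 CPM in the other sub-clusters. S100a4 and Npnt were among its 5 leading genes. Sub-cluster 6, of 25 cells, was venous-like, with 5 of 6 venous markers highest there, among them Vwf (von Willebrand factor) at 305 CPM, Selp (P-selectin) at 213 CPM and Ackr1 at 191 CPM. In it 4 of the 8 smooth muscle and mesangial markers were highest too, and Tagln (1077 CPM) was among its 5 leading genes. A single WT female cell of 39096 UMIs held 18 of its 43 Vwf UMIs and 10 of its 30 Selp UMIs. Rbp7, which encodes a retinol-binding protein, led it at 2828 CPM, and Fabp4 reached 50984 CPM there against at most 8997 CPM elsewhere. Another WT female cell, of 11843 UMIs, held 201 of the 399 Rbp7 UMIs and 2478 of the 7193 Fabp4 UMIs of the sub-cluster.

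The other 3 sub-clusters were left unnamed. Sub-cluster 2 (189 cells) carried Plvap but was led by Igkc, Sema3d, Igf1, Kng2 and Umod, the latter the uromodulin gene of the thick ascending limb. Igkc rested on 20 UMIs there. In sub-cluster 2, 69 cells had a doublet score above 0.2, with a median score of 0.120. Its median mitochondrial share of 16.7% was the highest of the sub-clusters. Sub-cluster 5 (143 cells) had the highest level of 7 of 8 proximal tubule markers and of all 5 red blood cell genes, with the haemoglobin gene Hbb-bs at 69430 CPM, and Slc5a12, Pck1, Cyp4a14 and Sord were among its leading genes. Of its cells 118 had a doublet score above 0.2, and the median score was 0.278, against 0.0381 in sub-cluster 1. Sub-cluster 7 (17 cells, median 6613 UMIs) combined Ehd3 (1262 CPM) and Plat (1788 CPM) with the mesangial and mural genes Itga8 (558 CPM), Gata3 (375 CPM) and Pdgfrb (297 CPM), and was led by Sfrp2. Its pooled levels lean on KO female cells of 47366 and 47371 UMIs. That of 47366 UMIs held 42 of the 242 Ehd3 UMIs, and that of 47371 UMIs held 85 of the 343 Plat UMIs. The part of doublets and of free RNA in sub-clusters 2, 5 and 7 was not tested.

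**Figure D1:**
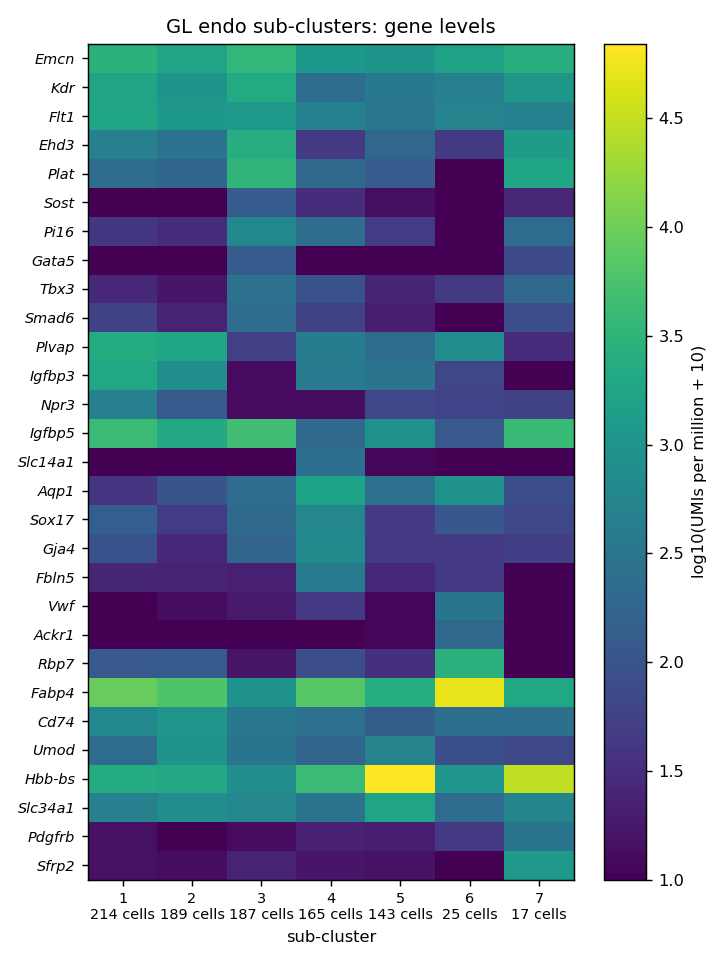
Heat map of gene levels in the 7 sub-clusters of the GL endo cells. Columns are sub-clusters with their cell numbers, rows are genes, and colour is log10 of the CPM plus 10 over all cells of the sub-cluster. Ehd3, Plat, Sost, Pi16 and Gata5 are brightest in sub-cluster 3, where Plvap and Igfbp3 are dark, Slc14a1 and Fbln5 in sub-cluster 4, and Rbp7 and Ackr1 in sub-cluster 6.

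The makeup of the cluster differed between the runs. The glomerular capillary-like sub-cluster made up 9.59%, 25%, 6.25%, 6.38% and 30.4% of the GL endo cells of the libraries. Sub-cluster 5 made up 33.6%, 4.35%, 29.7%, 35.1% and 3.72%. Sub-cluster 1 varied less, between 16.0% and 28.9%, and sub-cluster 4 between 15.1% and 19.2%. These shares are descriptions, since the genes that define the sub-clusters differed between the runs too.

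**Figure D2:**
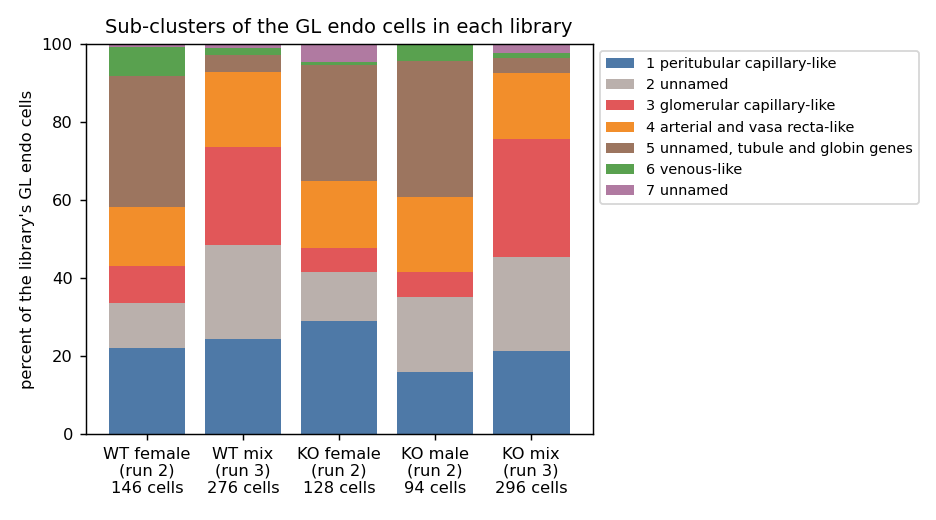
Stacked bars of the share of each sub-cluster among the GL endo cells of each library, in percent. Sub-cluster 3, the glomerular capillary-like one, takes 25% and 30.4% in the libraries of run 3 and at most 9.59% in those of run 2, and sub-cluster 5 takes at most 4.35% and at least 29.7%.

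The share of GL endo cells among all cells of a library asks whether the knockout kidney yields another amount of these cells. It was 5.75% (146 of 2538 cells) in WT female, 8.23% (276 of 3354) in WT mix, 4.35% (128 of 2944) in KO female, 5.24% (94 of 1794) in KO male and 8.30% (296 of 3567) in KO mix. The mean was 6.99% ± 1.75 over the 2 wild type libraries (SD, n = 2) and 5.96% ± 2.07 over the 3 knockout libraries (SD, n = 3), and the groups overlapped. On the log2 scale the knockout was lower by an estimate of -0.23 (standard error 0.46), which did not pass the edgeR test (adjusted p = 0.892 over 19 cell types). No cell type passed, and none had an unadjusted p under 0.05. The two-sided exact permutation test gave p = 0.6, and the smallest p it can give here is 0.2. Within run 3 the shares of WT mix and KO mix, 8.23% (exact binomial interval 7.32 to 9.21) and 8.30% (7.41 to 9.25), differed by less than counting error.

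The targeted transcript was at a low level in the GL endo cells of every library. Fame, listed as ccdc198, stood at 73.8, 23.6, 54.5, 39.4 and 21.0 CPM, and the groups overlapped. The share of GL endo cells with a UMI, thinned to 1000 UMIs, was 2.03% to 8.22%, below the 3.92% to 15.9% of the proximal straight tubule of the same libraries, whose cells express the gene. In summed counts that tubule type stood at 198, 39.5, 131, 40.7 and 55.0 CPM, close to the GL endo level in KO male. The part of free tubule RNA and of doublets in the GL endo level was not tested. Inserted STOP codons leave the transcript countable by a 3′ assay, so this level is no check of the genotype labels.

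No gene passed the threshold between knockout and wild type GL endo cells when genotype was the only term of the fit. Of 7043 genes tested, 0 (0%) had an adjusted p under 0.05 in the edgeR quasi-likelihood test, and 21 had an unadjusted p under 0.05. DESeq2 also called 0 (13 unadjusted), as did limma-voom (28 unadjusted). With no filter on low counts 11 of 15014 genes were called. Calls made without WT mix are left out, since WT female is then the only wild type library. The median log2 fold change over all genes tested was -0.0035. All these fits had genotype as their only term. Differences between the runs were thus part of their residual spread, which makes a call harder. With run as a block 1 gene was called and 232 had an unadjusted p under 0.05 in edgeR. With sex composition as a block these counts were 8 and 387. Where nothing differs, this threshold passes a fraction of about 0.05 of the 7043 genes. The unadjusted count lay below that fraction with the run block and close to it with the sex composition block.

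The 3 markers did not pass the test between genotypes. Relative to wild type, the fitted log2 fold change was 0.19 for Emcn (standard error 0.44), -0.36 for Kdr (0.68) and -0.16 for Ehd3 (0.67), with unadjusted edgeR p of 0.674, 0.614 and 0.818. In the 15 genes of the pan-endothelial list the median was -0.29 and in the 8 of the glomerular capillary list -0.04, and 0 genes of either list had an unadjusted p under 0.05. With run as a block these medians were -0.19 and 0.16, and with sex composition as a block -0.14 and 0.20, so that the glomerular capillary median turned sign. For the endothelial transcription factor list (16 of 17 genes tested) the median was -0.24, for the VEGF and angiopoietin list (10 of 13) -0.33, for BMP and TGF-beta signalling (15 of 15) -0.17, for Notch signalling (8 of 10) 0.10, for fenestrae and caveolae (8 genes) -0.59 and for MHC and interferon genes (18 of 18) 0.05. The fenestrae and caveolae list summed to 2243, 3915, 1499, 1362 and 3481 CPM in all cells. With cells of at most 10000 UMIs it summed to 1802, 3950, 1764, 1386 and 3481 CPM. A single WT female cell of 39096 UMIs held 135 of the 294 UMIs of its member Cavin2 in that library. Flt4, a VEGF receptor gene best known from lymphatic vessels, stood at -0.79. Ehd2, a caveolar ATPase gene, stood at -0.73 and the matrix gene Sparcl1 at -0.67. All had an unadjusted edgeR p of 0.05 or more and are named only as low-p members of their lists. In WT female a cell of 14754 UMIs held 9 of the 35 Flt4 UMIs, and another of 39096 UMIs held 12 of the 71 Ehd2 UMIs. The 6 genes of iron handling that were tested had a median of 0.11. A further list was taken from the study's account of a proximal tubule cluster, and since it was chosen on these samples it is not independent evidence. In the GL endo cells its 12 genes had a median of 0.36, and 0 passed. Among all lists, 1 member had an unadjusted p under 0.05 (Ren1).

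The 2 mixed libraries allow a comparison of the glomerular capillary-like sub-cluster within 1 run, as values with no test. Ehd3 stood at 2726 CPM (95% exact Poisson interval 2451 to 3023) in the 69 cells of WT mix and at 2350 CPM (2124 to 2594) in the 90 cells of KO mix. Plat stood at 3280 CPM (2978 to 3605) and 2969 CPM (2714 to 3241), Kdr at 2331 CPM (2078 to 2607) and 2457 CPM (2226 to 2706), Emcn at 2908 CPM (2624 to 3214) and 2897 CPM (2646 to 3166). For each of these genes the 2 intervals overlapped. The intervals cover counting error only, and differences between mice are not in them.

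The genes with the lowest unadjusted p in each direction are given as values that did not pass, each with an edgeR adjusted p = 0.9997. Among those with a positive fold change, Hist1h2bc (a histone H2B gene) stood at 79.7 and 70.7 CPM in WT female and WT mix and at 148, 177 and 129 CPM in KO female, KO male and KO mix, a log2 fold change of 1.11 (standard error 0.41). Zhx1, which encodes a zinc finger and homeobox repressor, stood at 35.9 and 43.7 CPM against 61.3, 74.8 and 82.7 CPM (0.96, standard error 0.37). Mrps10, a mitochondrial ribosomal protein gene, rested on 4 and 10 UMIs against 24, 6 and 21 (1.65, standard error 0.56), and P2ry10b on 0 and 1 UMIs against 10, 5 and 14. In these 4 genes the groups did not overlap. They were picked by their low p, so this is no added evidence, and the share of all genes without overlap was not counted. For Gzma, also of this set and described below, KO mix was level with wild type.

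Among those with a negative fold change, Bap1, a deubiquitinase gene, stood at 35.9 and 37.0 CPM in wild type and at 11.4, 15.7 and 15.03 CPM in knockout (log2 fold change -1.30, standard error 0.43). Helz2 stood at 49.8 and 74.0 CPM against 22.7, 11.8 and 34.6 CPM (-1.26, standard error 0.43). Rbm18 stood at 57.8 and 55.5 CPM against 20.4, 27.6 and 27.0 CPM (-1.10, standard error 0.40). Tcf7l2, a transcription factor of WNT signalling, stood at 77.7 and 55.5 CPM against 31.8, 23.6 and 34.6 CPM (-1.05, standard error 0.40). The groups did not overlap in these genes either, again after picking by p, and each rested on 3 to 44 UMIs per library. For Ren1, also of this set and described below, the groups overlapped. With a block for run none of the 8 genes without overlap passed.

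**Figure D3:**
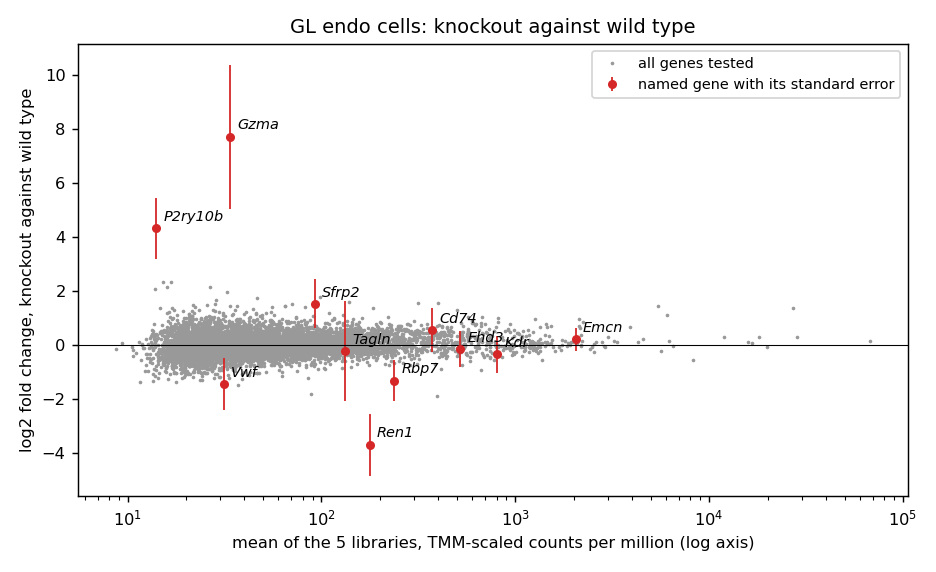
Log2 fold change of knockout against wild type for each of the 7043 genes tested in the GL endo cells, against the mean of the 5 libraries in CPM on a log axis. Red points are named genes with standard errors, and grey points all genes. Emcn, Kdr and Ehd3 lie near 0, and the genes far from 0, Gzma, P2ry10b and Ren1, rest on few cells or few UMIs.

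The genes with the largest fold changes rested on few cells. Ren1, the renin gene of juxtaglomerular cells, stood at 710, 26.9, 13.6, 43.3 and 30.1 CPM (log2 fold change -3.71, standard error 1.14, edgeR adjusted p = 0.9997). Of its 356 UMIs in WT female, 354 lay in 1 cell with 1637 UMIs, and without that cell the library stood at 4.00 CPM. Gzma (granzyme A, a gene of cytotoxic lymphocytes) had 43 UMIs in 2 cells of KO female and 13 UMIs in 1 cell of KO male, and 0 in the other 3 libraries. Ccl21a, a chemokine gene of lymphatic endothelium, had 173 of its 174 UMIs in WT female, 119 of them in 1 cell. Markers of other cell types were present at very different levels over the whole cluster. The 8 proximal tubule markers summed to 7021 to 18957 CPM, the 5 red blood cell genes to 1515 to 67786 CPM, and the 8 smooth muscle and mesangial markers, Ren1 included, to 1423 CPM in WT female and 97.6 to 539 CPM in the others. The 7 podocyte markers summed to 51.2 to 146 CPM, with Nphs1 at 0 in 3 libraries. The 9 myeloid markers summed to 61.8 CPM in WT female and 382 to 636 CPM in the others, and most of this was Cd74, an MHC class II chaperone gene, at 43.9 CPM in WT female and 303 to 579 CPM elsewhere, while Csf1r was at most 4.51 CPM. The 6 lymphoid markers summed to at most 47.2 CPM, and the lymphatic list summed to 572 CPM in WT female and 39.4 to 103 CPM in the other libraries.

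Rbp7 was called lower in the knockout when run was added to the fit. This gene, on the minus strand of chromosome 4 from 149449687 to 149454978, had 546, 162, 220, 130 and 46.6 CPM. Within each run the wild type library was highest. The fitted log2 fold change was -1.34 (standard error 0.76, edgeR adjusted p = 0.9997) without a block, -1.62 (0.22, adjusted p = 0.0284) with run as a block and -1.47 (0.20, adjusted p = 5.2e-05) with sex composition as a block. The fit has 1 residual degree of freedom with the sex composition block and 1 more with the run block. The spread between libraries behind these adjusted p is therefore poorly known. Of 274 UMIs in WT female, 201 lay in 1 cell of the venous-like sub-cluster, and without that cell the library stood at 149 CPM, below KO female. With run as a block and only cells of at most 10000 UMIs no gene was called, and the same held without the venous-like sub-cluster. The share of that sub-cluster was 7.53%, 1.81%, 0.781%, 4.26% and 1.35%.

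The fit with sex composition as a block called 8 genes, and several of them rested on few cells as well. Besides Rbp7 and Gzma these were Sfrp2, Ptn, Gata3 and Spp1, higher in knockout, and Fxyd6 and Tagln, lower. Sfrp2, a secreted WNT modulator, stood at 23.9, 67.3, 195, 7.87 and 156 CPM, with 229 of its 244 UMIs in the 17 cells of sub-cluster 7, and Gata3 had 72 of 81 UMIs there. Tagln, a smooth muscle gene, stood at 255, 3.36, 2.27, 315 and 3.01 CPM, and its 213 UMIs lay in 23 cells. In that fit KO male has no partner of its own sex composition and does not inform the genotype effect. The effect thus rests on the female pair and the mixed pair of libraries alone.

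**Figure D4:**
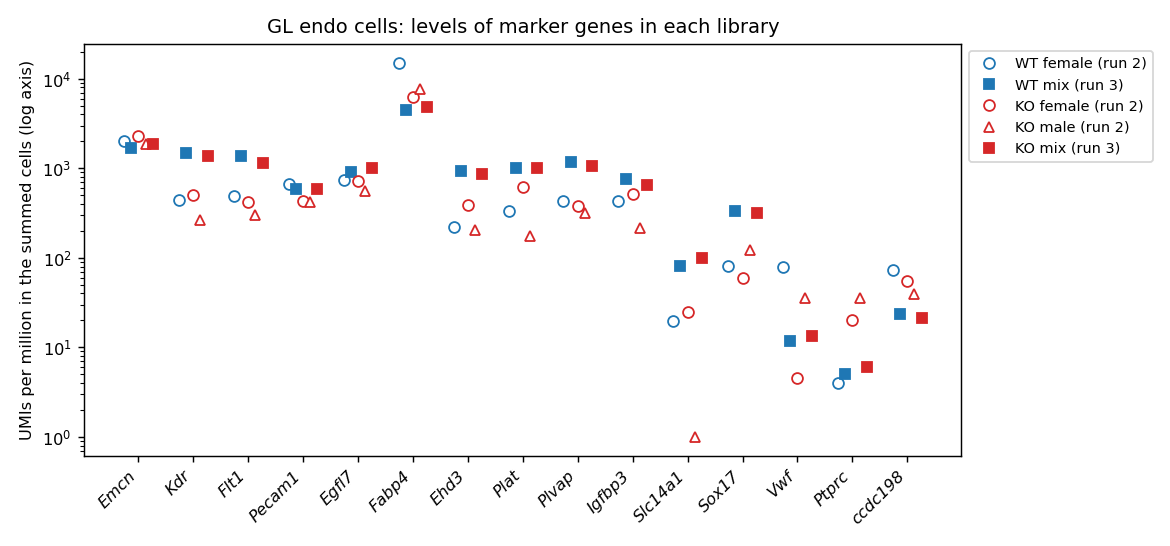
Levels of 15 genes in the GL endo cells of each library, in CPM on a log axis (values under 1 are drawn at 1). Blue marks wild type and red knockout, filled squares the mixed libraries of run 3 and open symbols the single-sex libraries of run 2. Emcn has a narrow range across the libraries, Kdr, Flt1, Ehd3, Plvap and Sox17 are higher in both filled squares, and Ptprc stays under 40 CPM.

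Many more genes passed between the runs than between the genotypes. Run 3 was compared with run 2 with genotype in the model, a comparison added after the mixed libraries were seen to stand apart. Of 7043 genes, 1890 passed an adjusted p of 0.05 in edgeR (26.8%), 913 higher in run 3 (13.0%) and 977 lower (13.9%). DESeq2 called 719, and edgeR 632 without KO mix, 933 without WT female and 941 without WT mix. Without the 20 cells above 10000 UMIs 1711 of 5222 genes were called, 845 higher (16.2%) and 866 lower (16.6%). Without sub-cluster 5 it was 1177 of 5023 genes, 523 higher (10.4%) and 654 lower (13.0%). Run, pooling of the sexes, depth of single cells and the share of sub-clusters 3 and 5 all moved together in these libraries, and their parts were not tested.

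Receptors and transcription factors of endothelial identity were among the genes higher in run 3. In the pan-endothelial list 8 of 15 genes rose and 0 fell, against 13.0% and 13.9% of all genes, with a median log2 fold change of 0.67 against 0.02 over all genes. Kdr rose by 1.55 (standard error 0.20, edgeR adjusted p = 0.000179), and Flt1, at 496, 1358, 416, 303 and 1135 CPM, by 1.31 (0.16, adjusted p = 0.000105). The VEGF co-receptor gene Nrp1 rose by 1.36 (0.20, 0.000325) and the TGF-beta co-receptor gene Eng (endoglin) by 1.35 (0.19, 0.000303). Pecam1 was at -0.08 and did not pass, and Emcn was at -0.45 (adjusted p = 0.0559). Without sub-cluster 5 the pan-endothelial list had 5 genes higher and 1 lower, and the lower one was Emcn, at -0.78 (standard error 0.21, adjusted p = 0.0209), while Kdr was at 1.44 (0.27, 0.00498). In the endothelial transcription factor list 12 of 16 genes were higher and 1 lower, with a median of 0.93. Sox18, which encodes an SRY-box factor of vessel and lymphatic development, had 3, 235, 3, 1 and 289 UMIs, so that it was close to absent from the counts of run 2. Whether the reads of both runs were counted in the same way was not tested, which limits what this value and the count of the list mean.

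The genes of the glomerular bed were also higher in run 3, as was the share of the sub-cluster that carries them. In the glomerular capillary list 5 of 8 genes rose and 0 fell, with a median of 1.35, and this and the next 3 counts stand beside 13.0% higher and 13.9% lower over all genes. Ehd3 rose by 1.501 (standard error 0.24, edgeR adjusted p = 0.00119) and Smad6, at 7.97, 111, 11.4, 3.94 and 101 CPM, by 3.38 (0.38, adjusted p = 4.16e-05). Plat, at 335, 1008, 616, 173 and 1016 CPM, did not pass (adjusted p = 0.281). In the BMP and TGF-beta list 7 of 15 genes rose and 0 fell, among them the BMP target Id1, at 217, 834, 189, 236 and 948 CPM (1.81, 0.18, 2.16e-05). In the basement membrane list 6 of 12 rose and 0 fell, among them the collagen IV gene Col4a1 (1.55, 0.19, 8.29e-05), and in the MHC and interferon list 7 of 18 rose and 1 fell, with H2-K1 and H2-D1 higher and Ifitm3 lower.

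Immediate early and heat shock genes, which are known to be induced while tissue is digested, were nearly all higher in run 3. Of 21 genes of this list 20 passed in that direction and 0 in the other, against 13.0% and 13.9% of all genes, with a median log2 fold change of 1.56. Without sub-cluster 5 it was 14 and 0, against 10.4% and 13.0% of all genes. Jund stood at 122, 1878, 114, 86.6 and 1309 CPM (3.55, standard error 0.18, edgeR adjusted p = 4.5e-08). Jun stood at 496, 3123, 548, 335 and 2566 CPM, and Hspa1b, an inducible HSP70 gene, at 57.8, 703, 59.1, 35.4 and 655 CPM. In all 3 genes both libraries of run 3 lay above every library of run 2. The share of all genes that separate the runs in this way was not counted. Hspa8, the constitutive HSP70 gene, was the member that did not pass (0.30, 0.16, adjusted p = 0.174). Klf2 and Klf4, transcription factors that shear stress induces in endothelium, were also higher in run 3, with Klf2 at 371, 2320, 402, 209 and 2324 CPM (2.55, 0.21, 1.32e-05).

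Few genes of lipid handling passed between the runs, and they went both ways. Of 9 genes tested 2 were lower in run 3 (Fabp4 and Rbp7) and 2 higher (Gpihbp1 and the transcription factor gene Tcf15). Over all genes 13.9% were lower and 13.0% higher, so these counts are too small to set the list apart. With cells of at most 10000 UMIs it was 1 lower and 2 higher, beside 16.6% and 16.2% of all genes. Fabp4 stood at 15132, 4435, 6277, 7617 and 4852 CPM (-1.30, standard error 0.27, edgeR adjusted p = 0.00704), and Rbp7 fell by 2.08 (0.24, 4.63e-05). Gpihbp1 stood at 299, 744, 277, 142 and 464 CPM and rose by 0.96 (0.22, adjusted p = 0.00699). Of the 5 red blood cell genes 5 fell, against 13.9% of all genes, with Hbb-bs at 24927, 1332, 52769, 40528 and 962 CPM. Malat1, a nuclear non-coding RNA, stood at 94022, 27684, 89367, 70385 and 29554 CPM (-1.83, 0.23, 9.18e-05). Of 83 ribosomal protein genes 12 rose and 35 fell, where 13.0% of all genes rose and 13.9% fell, so that the share that rose was near that of all genes. Of the 8 proximal tubule markers 3 fell and 0 rose, a small count beside the 13.9% and 13.0% of all genes. Without sub-cluster 5 it was 0 and 0 of 7. Kap, an androgen-regulated secreted protein of the tubule and a member of that list, stood at 149.5, 7655, 116, 14505 and 6084 CPM, lowest in both female libraries, and did not pass between the runs.

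**Figure D5:**
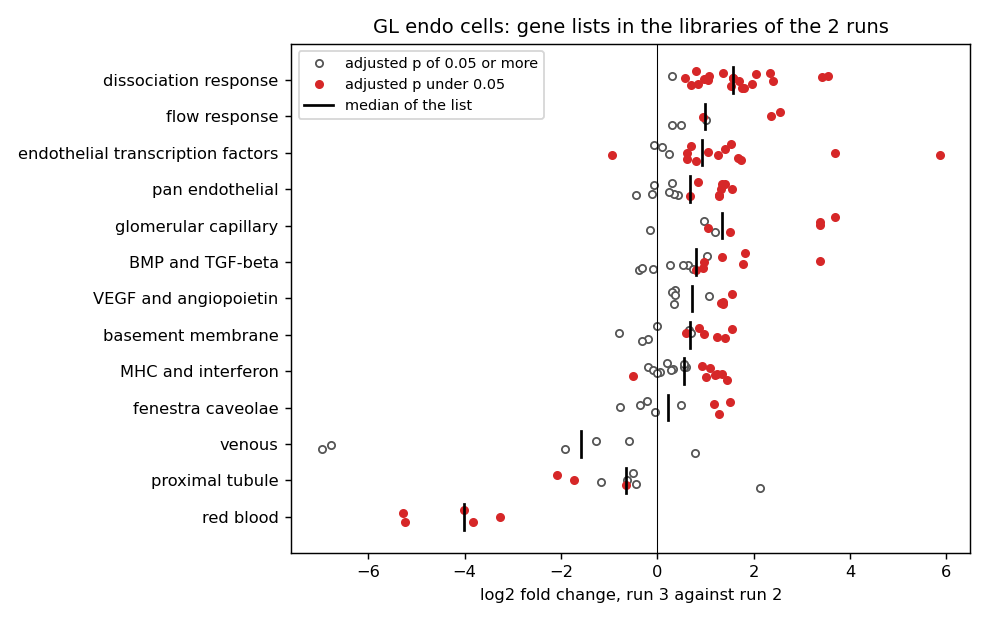
Log2 fold change of run 3 against run 2 in the GL endo cells for the tested members of 13 gene lists. Filled red points passed an adjusted p of 0.05, open points did not, and the black bar is the median of the list. The dissociation response list lies above 0 throughout, with a median of 1.56, and the 5 red blood cell genes lie below 0.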

How the data were processed

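The authors aligned the reads to mm10 with Cell Ranger 4.0.0, removed genes found in fewer than 3 cells and cells with fewer than 1000 counts or more than 50% mitochondrial counts, and clustered the cells in Seurat 3.2.2.9001, and the deposited matrix holds raw UMI counts per gene and cell. The deposited annotation gives each cell its cluster, its percent of mitochondrial counts and its Scrublet doublet score, a fraction between 0 and 1 computed by the authors. It was used as it stands, and no doublets were removed in the main analysis. The counts of the GL endo cells were summed per library (254045 to 665328 UMIs) and tested with edgeR 4.0.16 (TMM, filterByExpr, quasi-likelihood F-test, Benjamini-Hochberg adjustment over all genes tested) in R 4.3.3, for knockout against wild type over all 5 libraries with no covariate. DESeq2 1.42.0, limma-voom 3.58.1, other filters, blocks for sex composition or run, and leaving out each library were alternatives. The comparison of runs was added after seeing the data. Shares of cells were tested with edgeR over the 19 cell types and with an exact permutation test. Sub-clusters were found with scanpy 1.11.5 (2000 variable genes, library-centred, 20 principal components, 15 neighbours, Leiden resolution 0.6) and named from marker lists. Thinning drew 1000 UMIs per cell. Named genes were the 5 with the lowest p in each direction, genes called under a block, the most abundant and lowest-p members of each list, the 25 leading genes of the cluster and the 5 of each sub-cluster. The members and gene lists were chosen with earlier results of these data known. Scripts were tested on simulated data. Binomial and Poisson intervals cover counting error only.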

Additional observations from a re-analysis of the deposited data

How the results depend on the processing

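Between genotypes the count of 0 called genes became 11 with no filter on low counts, 8 with sex composition as a block, 1 with run as a block, 6 with sex composition as a block and at most 10000 UMIs per cell, and 3 with no filter and at most 10000 UMIs. It stayed 0 when 1 knockout library was left out, and with DESeq2, limma-voom, RLE scaling and the stricter filters on genes, cells and doublet scores that were run. Without WT mix or WT female a single wild type library was left, so no count is given. Between runs the count of 1890 became 719 with DESeq2, 1126 with doublet scores of at most 0.2 and 1177 without sub-cluster 5, and ranged from 632 (without KO mix) to 2238 (without KO male). The number of sub-clusters was 4 at resolution 0.3 and 12 at resolution 1. The log2 difference in the share of GL endo cells ranged from -0.55 to 0.052 with 1 library left out, turning positive without WT mix (0.052). Fold changes that turned sign were those of Emcn (-0.059 with run as a block and at most 10000 UMIs, -0.0037 with no filter and at most 10000 UMIs, -0.016 to 0.46 leaving out a library), Kdr (0.044 with the sex block, -1.15 to 0.63 leaving out a library), Ehd3 (0.30 with the sex block, 0.22 with the run block, 0.086 with the run block and without sub-cluster 6, -0.79 to 1.06 leaving out a library) and Tagln (0.61 with at most 10000 UMIs, 0.10 with the run block added, 0.55 with no filter added, -1.25 to 5.11 leaving out a library), and, only on leaving out a library, Ren1 (-4.66 to 0.26) and Spp1 (-0.42 to 2.53). The cause was not tested. Over the 20 single genes followed, 348 of 387 comparisons kept their direction and their side of the threshold. The settings with 10000 UMIs, without sub-cluster 5 or without sub-cluster 6 were chosen after seeing the data. The sex composition block is the paired analysis, since by the labels it sets both female libraries against each other and likewise both mixed ones. It leaves 1 residual degree of freedom, so its calls rest on few libraries. With run as a block and with sex composition as a block, the median fold change was -0.16 and -0.07 in the VEGF and angiopoietin list and -0.03 in the BMP and TGF-beta list under both. The fits rest on 94 to 296 GL endo cells per library.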

Other observations

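Cd74, which encodes the invariant chain of MHC class II, was found in GL endo cells of 4 libraries far more often than in WT female. A UMI was seen in 6.16% of the cells of WT female (95% exact binomial interval 2.86 to 11.4) and in 40.6%, 28.9%, 31.9% and 36.1% of those of WT mix, KO female, KO male and KO mix. With cells thinned to 1000 UMIs the shares were 4.11%, 30.8%, 16.4%, 20.2% and 26.4% in the order WT female, WT mix, KO female, KO male, KO mix, against 0.947%, 8.89%, 1.60%, 1.84% and 2.04% in the proximal straight tubule, where WT female was also lowest. The part of free RNA was not tested. The fold change between genotypes was not called for this gene, nor was that between runs (log2 1.36, standard error 1.23, edgeR adjusted p = 0.526). In sub-cluster 2, where 69 of 189 cells had a doublet score above 0.2, Cd74 stood at 988 CPM.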
